A study of Mus musculus with 6 samples.

Results

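The asterisk in a miRNA name was the older mark for the strand of a hairpin that had been found less often, here called the passenger strand. On the PCR array cards run on 6 mouse aortas, 57 of the 596 mouse miRNA assays were passenger strands chosen by this mark. All 57 were assigned to the second card, card B. The strand without the asterisk, the guide, was assigned to the first card, card A, for most of the hairpins. The card was inferred here from the length of the number that ends an assay name. Of all 64 assays with an asterisk, miR-21* and the numbers of some clustered families were not included.

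A miRNA hairpin is cut by Dicer into a short duplex. Usually the strand with the less tightly paired 5′ end is kept by an Argonaute protein and guides it to target mRNAs, and the other strand is degraded. Since both strands leave Dicer together, the pair of assays for a hairpin gives the amounts of both strands that remain. The seed, bases 2 to 8 of a mature strand, pairs with the target, so the strands of a hairpin have different targets.

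The aortas came from 3 EC-Dicerflox mice (VE-Cadherin-CreERT2Dicer1flox/flox/Apoe-/-) and 3 EC-DicerWT mice (VE-Cadherin-CreERT2Dicer1WT/WT/Apoe-/-). Mice of both groups were female, lacked Apoe, carried the inducible Cre and received tamoxifen (2 mg per 20 g of body weight, for 5 days). A week after the last injection, at an age of 6 to 8 weeks, a high-fat diet (HFD) was started for 12 weeks, in which casein made up 19.5%, crude fat 21% and cholesterol 0.15%. The VE-cadherin promoter drives Cre in endothelial cells, while the RNA was from the whole aorta, in which smooth muscle cells, leukocytes and other cells keep Dicer. The comparison asks which miRNAs depend on endothelial Dicer. Dicer1 mRNA was not measured on the cards, so the deletion was not checked here. In whole tissue, fewer cells of a type and less RNA per cell cannot be told apart.

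The deposited values were Ct values without normalisation, where the Ct is the cycle of the PCR in which the product reaches a set signal. A lower Ct means more RNA, 1 cycle is 1 unit on the log2 scale if the product doubles in each cycle, and 40 means not detected. The level of a strand was its Ct subtracted from the mean Ct of 5 control RNAs in that sample. This reference Ct ranged from 19.4 to 20.4, and 421 to 454 miRNA assays were detected per mouse. The endothelial markers miR-126-3p and miR-126-5p, the smooth muscle markers miR-143 and miR-145 and the 5 leukocyte markers were detected in all 6 aortas, and the ranges of their summed levels overlapped between the groups. The summed level of the endothelial markers ranged from 1.98 to 2.76 in EC-Dicerflox and from 2.14 to 2.82 in EC-DicerWT aortas, both on the log2 scale. Of the striated muscle markers 4 of 6 were detected in all 6 aortas, and miR-208 of heart muscle was lower in the EC-Dicerflox aortas at an unadjusted P under 0.05. The part of these cells in the results on passenger strands was not tested.

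Of the 57 members, 46 were matched to a mature RefSeq sequence of GRCm38.p6 through the arm, 5p or 3p, that the older name stands for. The first set is shown because in these hairpins the passenger strand gave the lower Ct. Some passengers are followed by their guide, and capitals mark the seed.

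miR-193* (miR-193a-5p): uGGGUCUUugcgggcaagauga
miR-193 (miR-193a-3p): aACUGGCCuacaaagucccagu
miR-872* (miR-872-3p): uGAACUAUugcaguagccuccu
miR-872 (miR-872-5p): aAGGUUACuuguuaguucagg
miR-674* (miR-674-3p): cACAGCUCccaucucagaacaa
miR-674 (miR-674-5p): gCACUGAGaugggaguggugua
miR-34c* (miR-34c-3p): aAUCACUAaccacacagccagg

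The miR-193* strand lies at chr11:79711975-79711996 on the plus strand and its guide at chr11:79712009-79712030, with no protein-coding or lncRNA gene of the annotation spanning them. The miR-872 hairpin lies inside the bounds of Ift74, a gene of ciliary transport, with the passenger strand at chr4:94665206-94665227. The miR-674* strand lies at chr2:117185186-117185207, outside such genes, and miR-34c* at chr9:51103044-51103065 within the bounds of Hoatz and Btg4. The gene table gives no strand for these genes, so sense and antisense positions could not be told apart.

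The next strands are shown because they were among the members with the lowest Ct and were not seen above a guide. For miR-877* no guide was on the cards under the same name. The miR-203* strand is shown because its change between the groups passed the unadjusted threshold.

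miR-24-2* (miR-24-2-5p): gUGCCUACugagcugaaacagu
miR-31* (miR-31-3p): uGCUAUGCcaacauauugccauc
miR-31 (miR-31-5p): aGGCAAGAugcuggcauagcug
miR-877* (miR-877-3p): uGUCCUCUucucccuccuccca
miR-28* (miR-28a-3p): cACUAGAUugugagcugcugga
miR-203* (miR-203-5p): aGUGGUUCuugacaguucaaca
miR-203 (miR-203-3p): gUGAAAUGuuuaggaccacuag

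The miR-877 hairpin is a mirtron, an intron that is spliced out and cut by Dicer without Drosha, and it lies within Abcf1, with miR-877* at chr17:35960731-35960752. The miR-28* strand lies within Lpp, a gene of cell adhesion that is active in smooth muscle, at chr16:24827908-24827929. The miR-203* strand is at chr12:112130889-112130910. Its guide miR-203 is known from skin and other epithelia.

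The 4 passenger strands of the let-7 family are shown to compare their seeds, because their guides are nearly the same while the passengers are not.

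let-7a* (let-7a-1-3p): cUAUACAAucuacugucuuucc
let-7c-1* (let-7c-1-3p): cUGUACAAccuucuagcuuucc
let-7d* (let-7d-3p): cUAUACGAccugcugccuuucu
let-7g* (let-7g-3p): aCUGUACAggccacugccuugc
let-7a (let-7a-5p): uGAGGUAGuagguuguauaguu
let-7d (let-7d-5p): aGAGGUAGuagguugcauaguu

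All of the let-7 guides in the table that pair with these strands have the seed GAGGUAG, while the 4 passenger strands have a different seed each. Over the 46 matched members, 44 seeds were distinct and only 2 seeds were shared, the seed of miR-17* and miR-20b* and the seed of miR-302b* and miR-302c*. These are shown because the members of a shared seed could be compared directly.

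miR-17* (miR-17-3p): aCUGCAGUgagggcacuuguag
miR-20b* (miR-20b-3p): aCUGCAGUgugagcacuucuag
miR-302b* (miR-302b-5p): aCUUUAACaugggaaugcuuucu
miR-302c* (miR-302c-5p): gCUUUAACaugggguuaccugc

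The strands of a shared seed were not both measurable in the aorta. The Ct of miR-17* was 26.4 to 28.0 in the 6 mice, while miR-20b* was detected only in EC-DicerWT replicate 2 at 37.7, and neither miR-302b* nor miR-302c* was detected in any mouse.

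The 43 hairpins for which both strands were in the sequence table were compared for the features of the 5′ end. A passenger strand started with U in 6 hairpins (14.0%) and a guide in 20 (46.5%), while A was the first base of 18 passengers and 13 guides. The first 4 bases held on average 1.95 A or U in passengers and 2.40 in guides. The passenger held fewer A or U there than its guide in 21 hairpins, the same number in 14 and more in 8. The median GC content was 50.0% in passengers and 43.5% in guides. The passenger was the 3p arm in 28 of the 46 matched members and the 5p arm in 18.

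The 5′ ends were also set beside the order of the strands in the aorta. In the 29 pairs with both sequences and a passenger detected in at least 3 mice, the passenger had the lower mean Ct in 7 and the higher one in 22. Of these 7 passengers 2 started with U, as did 2 of their 7 guides. Of the 22 other pairs 2 passengers and 12 guides started with U. The counts are a description of few hairpins and were not tested.

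Many passenger strands persisted in the aorta. Of the 57 members, 38 (66.7%) were detected in all 6 mice, 3 in 5 mice (miR-92a*, miR-133a* and miR-136*), 2 in 3 mice (miR-196a* and miR-141*), 1 in 2 mice (miR-19a*), 2 in 1 mouse (miR-20b* and miR-295*) and 11 in none. Among the 532 assays without an asterisk, 352 (66.2%) were detected in all 6 mice and 94 (17.7%) in none. On card B alone, which holds all members, 103 of the 197 assays without an asterisk (52.3%) were detected in all 6 mice and 27.9% in none, beside 66.7% and 19.3% of the members. The share of members detected in all mice was thus close to that of the other assays of both cards and above that of the other assays on card B, a difference that was not tested.

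The 11 members without a signal were miR-181A-2*, miR-293*, miR-294*, miR-302a*, miR-302b*, miR-302c*, miR-374*, miR-483*, miR-488*, miR-712* and miR-742*. The hairpins of the miR-290 group (miR-293, miR-294 and miR-295) and the miR-302 group are known from embryonic stem cells. Their 6 passenger strands gave a single detection in all mice together, miR-295* at a Ct of 39.5 in EC-Dicerflox replicate 3. No signal here means no product within 40 cycles and depends on the assay as well as on the RNA.

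The number of passenger strands detected did not separate the groups. It was 42, 41 and 44 in the EC-Dicerflox and 43, 44 and 39 in the EC-DicerWT aortas. The means were 42.3 ± 1.53 (SD, n = 3) and 42.0 ± 2.65 (SD, n = 3), a difference of 0.33 strands (P = 1, exact two-sided permutation test, smallest possible P 0.1). With a limit of Ct 35 the counts were 37 to 39 in all mice.

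**Figure D1:**
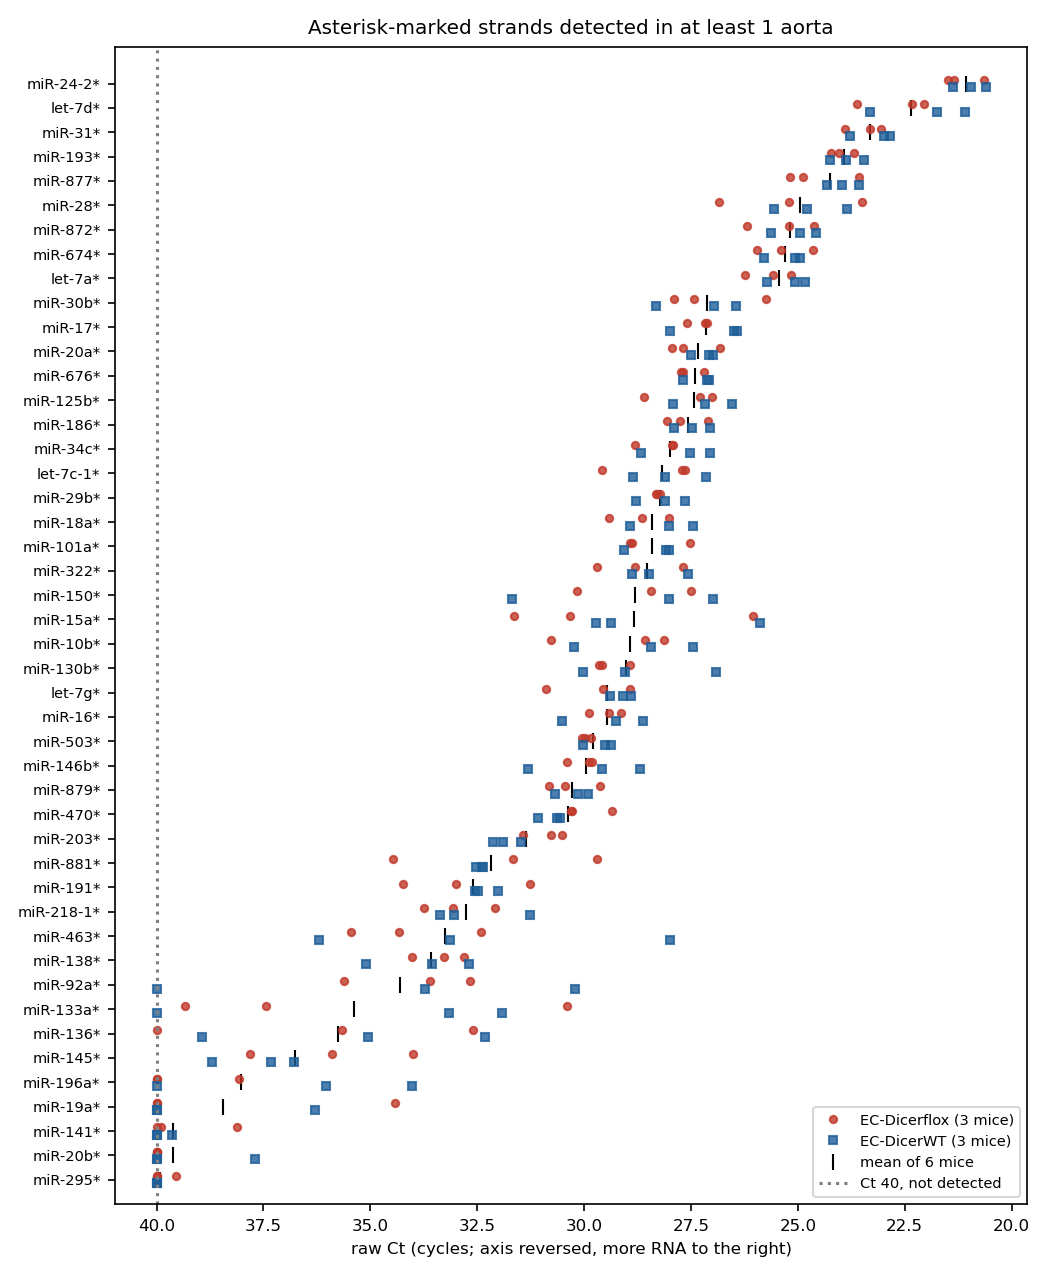
Raw Ct (in cycles, axis reversed) of the 46 passenger strands detected in at least 1 aorta, 1 point per mouse, with EC-Dicerflox as circles, EC-DicerWT as squares and the mean of the 6 mice as a vertical tick. The means run from 21.1 for miR-24-2* to 39.9 for miR-295*, points at 40 were not detected, and the points of the groups lie among each other for nearly all strands.

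Among the 38 members detected in all mice the mean Ct ran from 21.1 to 36.8 with a median of 28.4. The 352 assays without an asterisk that were detected in all mice had a median of 26.5, and those of them on card B had a median of 28.3. Passenger strands therefore gave Ct values like those of the other assays on their own card. Ct values of different assays also depend on each assay's efficiency, so the order given next is an order of signals.

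The lowest Ct belonged to miR-24-2*, at 20.6, 21.5 and 21.4 in the EC-Dicerflox and 20.6, 20.96 and 21.4 in the EC-DicerWT aortas. The groups overlapped fully. The hairpin miR-24-2 is transcribed together with miR-23a and miR-27a and gives the guide miR-24, which is made from another hairpin copy as well. The miR-24 assay on card A had a mean Ct of 15.5.

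Second was let-7d*, at 22.0, 23.6 and 22.3 in the EC-Dicerflox and 21.1, 21.7 and 23.3 in the EC-DicerWT aortas. Its spread between mice (pooled SD 0.858) was larger than that of its neighbours. Then came miR-31*, with 23.1, 23.3 and 23.9 in the EC-Dicerflox and 22.8, 22.99 and 23.8 in the EC-DicerWT aortas. This was one of the tightest assays, with a pooled SD of the level of 0.141. The guide miR-31 is known from smooth muscle and endothelium.

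The other members with a mean Ct under 25.5 were miR-193* (23.9), miR-877* (24.3), miR-28* (24.96), miR-872* (25.2), miR-674* (25.3) and let-7a* (25.4). The order from miR-28* to let-7a* was within the spread between mice. A gap followed, after which miR-30b* (27.1), miR-17* (27.1), miR-20a* (27.3), miR-676* (27.4) and miR-125b* (27.4) lay close together. The mean Ct of let-7c-1* was 28.2, that of let-7g* 29.5 and that of miR-138*, from a hairpin known in neurons, 33.6.

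At the other end, the Ct of miR-145* was 34.01, 35.9 and 37.8 in the EC-Dicerflox and 38.7, 37.3 and 36.8 in the EC-DicerWT aortas. This strand comes from the hairpin of miR-145, a miRNA that marks smooth muscle and had the lowest Ct of all guides here. Of the 253 detected Ct values of members, 22 lay between 35 and 40. A single member value lay above the Ct of 39.8 that a plant miRNA, which mice lack, gave in 1 well.

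The spread of an assay between mice went with its Ct. The median pooled SD of the level was 0.347 for the 6 tested members with a mean Ct under 25, 0.548 for the 23 between 25 and 30 and 1.36 for the 14 at 30 or above. In the same classes the other tested assays had 0.292, 0.491 and 1.71. Passenger strands therefore varied somewhat more than other miRNAs under a mean Ct of 30 and less at 30 or above. This spread holds differences between mice as well as assay error, which could not be told apart.

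A few strands were set apart by replicate 3 of both groups. For miR-15a* the Ct was 30.3, 31.7 and 26.0 in the EC-Dicerflox and 29.4, 29.7 and 25.9 in the EC-DicerWT aortas. Both replicates 3 lay more than 2 cycles below all other mice, which held for 1 member and for 22 of the 596 assays when either direction was counted. The guide miR-15a showed no such gap, with 21.5 to 22.7 in the 6 mice. The same direction with smaller gaps appeared in miR-28*, at 23.5 and 23.9 in replicates 3 against 24.8 to 26.9 in the others, and in miR-322*, at 27.7 and 27.6 against 28.5 to 29.7. Other members went the opposite way. For miR-10b* the replicates 3 were at 30.8 and 30.2 against 27.5 to 28.6, and for let-7c-1* at 29.6 and 28.9 against 27.2 to 28.1. The labels give the replicates 3 nothing in common beyond the number.

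For 49 members the guide was on the cards under the same name without the asterisk, and 28 pairs had both strands in all 6 mice. The guide had the lower Ct in 24 of these and the passenger in 4. The median difference, the Ct of the passenger minus that of the guide, was 4.64 cycles, which is 24.9-fold if each cycle doubles the product. In 14 pairs the guide was ahead by over 5 cycles and in 10 by less. In 27 of the 28 pairs the order of the strands was the same in each of the 6 mice.

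These differences compare different assays, mostly on different cards. In the 3 pairs with both strands on the same card and in at least 3 mice, the median difference was only 0.37 cycles. It was taken over the pairs in each mouse and then over the mice. The guide excess given above was thus not seen in these few pairs. The pair of miR-712, also on card B, was not among them because its passenger was undetected. Its guide was ahead by at least 14.9 cycles on average. For some pairs, such as let-7a, miR-16, miR-29b and miR-92a, the mature name of the passenger gives a hairpin copy and that of the guide does not. Such a pair may set the passenger of a single copy beside the guide of several copies. As means over the mice, the 5 control RNAs differed by -0.67 to 0.45 cycles between card B and card A, so the cards were close on average. In single mice the difference was wider, from -1.18 to 1.71 cycles for Y1. The 13 miRNAs with an assay of the same name on both cards differed more, by -7.65 to 12.99 cycles. Their median size was 2.80 cycles, and 9 of them differed by more than 2 cycles. For the 7 of them detected in all mice on both cards the differences were -6.36 to 4.16 cycles with a median size of 2.05. The miRNAs miR-10b and miR-322, whose passenger strands are members, differed by 4.08 and 2.05 cycles between their assays. A strand difference of a few cycles in a single pair is therefore not resolved by these assays.

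The largest reverse order in pairs with both strands in all mice was that of miR-193. The Ct of miR-193* was 23.7, 24.2 and 24.05 in the EC-Dicerflox and 23.5, 23.9 and 24.3 in the EC-DicerWT aortas. The Ct of miR-193 was 28.9, 29.9 and 29.9 in the EC-Dicerflox and 29.004, 29.7 and 29.6 in the EC-DicerWT aortas. The strand with the asterisk was ahead by 5.57 ± 0.24 cycles (SD, n = 6 mice), or 47.4-fold at doubling per cycle, and in 6 of 6 mice. The SD is a spread between mice and does not cover a difference between assays. The assays of miR-467a on card B and card A differed by -6.36 cycles, so a difference of this size can also arise between assays. This was the largest of these 4 reverse orders, and its SD was the smallest among the 28 pairs. The guide, miR-193a-3p, is the strand mostly studied for this hairpin.

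The other 3 reverse orders were smaller than the median assay disagreement. The passenger was ahead by 1.37 ± 1.19 cycles (SD, n = 6 mice) for miR-872*, by 0.93 ± 0.49 cycles for miR-674* and by 0.82 ± 0.49 cycles for miR-34c*. The order was the same in 6 of 6 mice for miR-872* and miR-674* and in 5 of 6 mice for miR-34c*. For miR-872* both replicates 3 stood apart, at 3.17 and 2.56 cycles against 0.36 to 0.88 in the other mice. The hairpin of miR-34c is a p53 target, and both of its strands were near a Ct of 28, at 28.0 and 28.8.

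Among all 37 pairs with a passenger detected in at least 3 mice, whether or not the guide was detected, the passenger was ahead in 9. The 5 further ones, named after their values were seen, were miR-146b*, miR-470*, miR-879*, miR-881* and miR-463*. The guide miR-146b is known from the inflammatory response of leukocytes and endothelium. Its assay was undetected in all 6 mice, while miR-146b* had a Ct of 29.8, 30.4 and 29.9 in the EC-Dicerflox and 31.3, 29.6 and 28.7 in the EC-DicerWT aortas. With 40 as the bound, the passenger was ahead by at least 10.05 cycles on average.

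The pairs miR-470, miR-881 and miR-463 lie in an X-linked cluster that is known from testis. The guide miR-470 was undetected in all mice and miR-881 in all but EC-Dicerflox replicate 1 (31.7). Their passenger strands had a Ct of 29.4 to 31.1 for miR-470* and 29.7 to 34.5 for miR-881*. The passenger of another hairpin of the cluster, miR-742*, was undetected, and its guide gave a signal only in EC-Dicerflox replicate 1 (37.5). For miR-879 the guide was detected in 3 mice (33.4, 36.3 and 35.8), while miR-879* was steady at 29.6 to 30.8 in all 6.

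Of these 9 pairs miR-463 was the only one with the guide on card B too, and its order held in 4 of 6 mice. The Ct of miR-463* in EC-DicerWT replicate 3 was exactly 28.0, against 32.4 to 36.2 in the other mice, and was the only whole number among the detected values of members. In the opposite direction on card B, miR-712* was undetected in all mice, while miR-712 had a Ct of 24.6, 24.3 and 26.0 in the EC-Dicerflox and 24.5, 24.8 and 26.2 in the EC-DicerWT aortas. The signal of the guide was thus ahead by at least 14.9 cycles within 1 card, where no signal again depends on the assay as well.

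**Figure D2:**
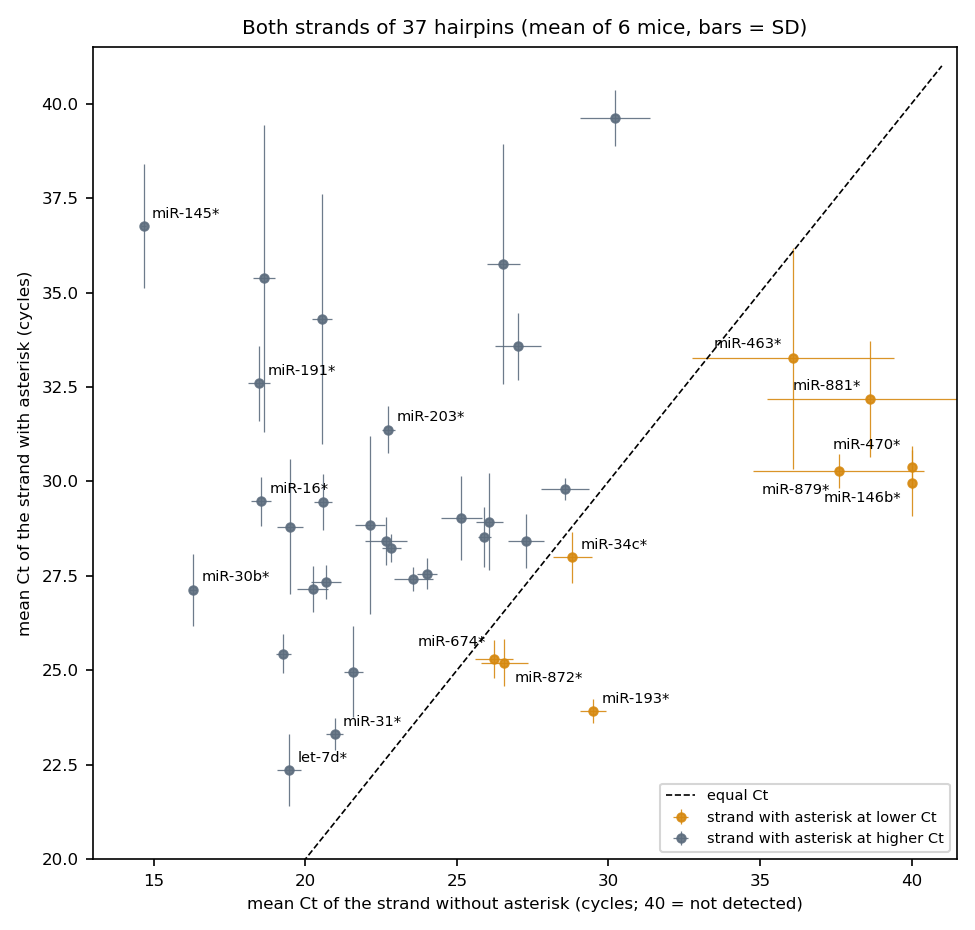
Mean Ct of the strand with an asterisk (vertical axis, cycles) against that of the strand without it (horizontal axis, cycles) for the 37 hairpins whose passenger was detected in at least 3 of 6 mice, with bars for the SD over the 6 mice and undetected wells at 40. The dashed line marks equal Ct, the 9 orange points under it have the passenger ahead, with miR-193* the farthest below the line among those with both strands in all mice, and the 28 grey points have the guide ahead, up to 22.1 cycles for miR-145*.

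Among the 28 pairs with both strands in all mice, the guide was farthest ahead for miR-145, by 22.1 ± 1.63 cycles (SD, n = 6 mice). The passenger was here close to the limit of detection and the guide was the strongest of all guides, at 14.5 to 14.8 in the 6 mice. Next of these 28 were miR-191 with 14.1 ± 1.08, miR-16 with 10.9 ± 0.70, miR-30b with 10.8 ± 0.89 and miR-150 with 9.31 ± 1.73 cycles. Of these, miR-16 is expressed in most cells and miR-150 marks lymphocytes. The Ct of miR-150* was 27.5, 30.2 and 28.4 in the EC-Dicerflox and 26.98, 28.02 and 31.7 in the EC-DicerWT aortas, and the range in the EC-DicerWT aortas covered that of the EC-Dicerflox aortas.

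Hairpins of a cluster are transcribed together, and their passenger strands still gave different signals. In the miR-17-92 cluster on chromosome 14, which supports proliferation, the mean Ct was 27.1 for miR-17*, 27.3 for miR-20a*, 28.4 for miR-18a*, 34.3 for miR-92a* and 38.5 for miR-19a*. Their guides had 20.2, 20.7, 27.3, 20.6 and 23.8. The order of the passengers did not follow that of the guides, since miR-18a had the highest Ct of these guides and its passenger was only 1.14 ± 0.58 cycles (SD, n = 6 mice) behind. For miR-92a the passenger was 13.7 ± 3.14 cycles behind, with an undetected well in EC-DicerWT replicate 3.

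Other clusters gave closer mean values. Within Dleu2 on chromosome 14, miR-15a* and miR-16* had a mean Ct of 28.8 and 29.5. The mean of miR-15a* hides its low replicates 3, at 26.0 in EC-Dicerflox and 25.9 in EC-DicerWT. In these mice miR-16* was at 29.9 and 30.5, so the strands were not close there. The X-linked miR-322 and miR-503, from the family of miR-15 that shares a seed core and slows the cell cycle, gave 28.5 for miR-322* and 29.8 for miR-503*. The passenger was behind by 2.62 ± 0.95 cycles for miR-322, whose guide was averaged over the assays of both cards, and by 1.23 ± 0.83 cycles for miR-503. On chromosome 13, let-7d* (22.4) came before let-7a* (25.4), while the guides let-7d and let-7a were at 19.5 and 19.3.

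The change between the groups was tested for the 43 members detected in at least 3 mice, together with all 439 assays that met this filter. No member had an adjusted P under 0.05 by limma, as was the case for all assays (0.0%), and the adjusted P of the members lay between 0.976 and 0.994. At an unadjusted P under 0.05 there was 1 member, miR-203*, which is 2.33% of those tested, beside 4.78% of all tested assays. It was higher in EC-Dicerflox aortas, as were 0.911% of all tested assays at that threshold, while none of the members and 3.87% of all were lower at it. Whatever their P, 28 of the tested members (65.1%) had a change below 0 and 15 a change above 0, beside 61.7% below 0 among all tested assays. The median change was -0.13 for the members and -0.10 for all tested assays, both on the log2 scale.

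The spread of the changes was close to that of all tested assays. The change was under 0.5 log2 units in either direction for 30 of the 43 (69.8%) and for 64.7% of all tested assays, and it was over 1 for 4 members (9.30%) and 14.8% of all. In the members detected in all mice the median size of the change was 0.28, beside 0.28 in all tested assays of that kind. The groups did not overlap in 2 of the 43 members (4.65%), beside 9.79% of all tested assays. The EC-Dicerflox mice were all higher in 1 of the 2, miR-203* (2.73% of all), and all lower in the other, let-7a* (7.06% of all).

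The level of miR-203* was -11.34, -10.65 and -11.07 in the EC-Dicerflox and -12.55, -12.03 and -11.73 in the EC-DicerWT aortas, as reference Ct minus Ct. All EC-Dicerflox mice were higher, and the closest mice of the groups were 0.39 units apart. The change was 1.08 ± 0.33 (SE, log2 scale), or 211.8% of the EC-DicerWT level (limma, unadjusted P = 0.0197, adjusted P = 0.976, exact two-sided permutation P = 0.1, the smallest possible). Before a reference was subtracted, the Ct values were 30.8, 30.5 and 31.4 against 32.1, 31.5 and 31.9, and the groups were separated by 0.05 cycles.

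The guide of the same hairpin overlapped between the groups. The Ct of miR-203 was 22.9, 22.7 and 22.9 in the EC-Dicerflox and 22.4, 22.6 and 22.9 in the EC-DicerWT aortas, and its change was -0.03 ± 0.32 (SE, log2 scale, limma unadjusted P = 0.919). The passenger was behind the guide by 8.08 ± 0.43 cycles (SD, n = 3) in the EC-Dicerflox and by 9.20 ± 0.48 cycles (SD, n = 3) in the EC-DicerWT aortas. This strand difference changed by -1.12 cycles without overlap of the groups (exact two-sided permutation P = 0.1, the smallest possible). The strands were on different cards, which differed by -1.18 to 1.71 cycles in single mice for the control RNA Y1. Across the pairs with both strands in at least 3 mice, miR-203 was the only one of 34 whose groups did not overlap (2.94%). Among all 38 asterisk pairs on the cards that met the same filter, the share was 5.26%. When the guide could be undetected, 2 of the 37 member pairs with the passenger in at least 3 mice did not overlap. The second of these was miR-470*. Its guide was set to 40 in all mice, so this was a difference in the raw Ct of miR-470* alone, and the levels of miR-470* overlapped. The share among all asterisk pairs under this looser filter is not given here. The call of miR-203* rested on the setting and on 2 mice, since its unadjusted limma P was over 0.05 with U6 alone as the reference, with an intensity trend in the fit, and when either EC-Dicerflox replicate 2 or EC-DicerWT replicate 1 was left out.

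The other member without overlap was let-7a*. Its level was -5.72, -5.71 and -5.88 in the EC-Dicerflox and -5.27, -5.63 and -5.56 in the EC-DicerWT aortas. The groups were separated by 0.08 units, overlapped in the raw Ct, and the change was -0.28 ± 0.21 (SE, log2 scale, limma unadjusted P = 0.231). The guide let-7a had a change of -0.20 ± 0.29 and overlapped. The let-7 family is abundant in differentiated tissue, and none of its passenger strands passed the test. Their changes were -0.50 ± 0.53 for let-7g*, -0.45 ± 0.64 for let-7d* and -0.11 ± 0.51 for let-7c-1*, so that 4 of 4 were below 0 with a median of -0.37.

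**Figure D3:**
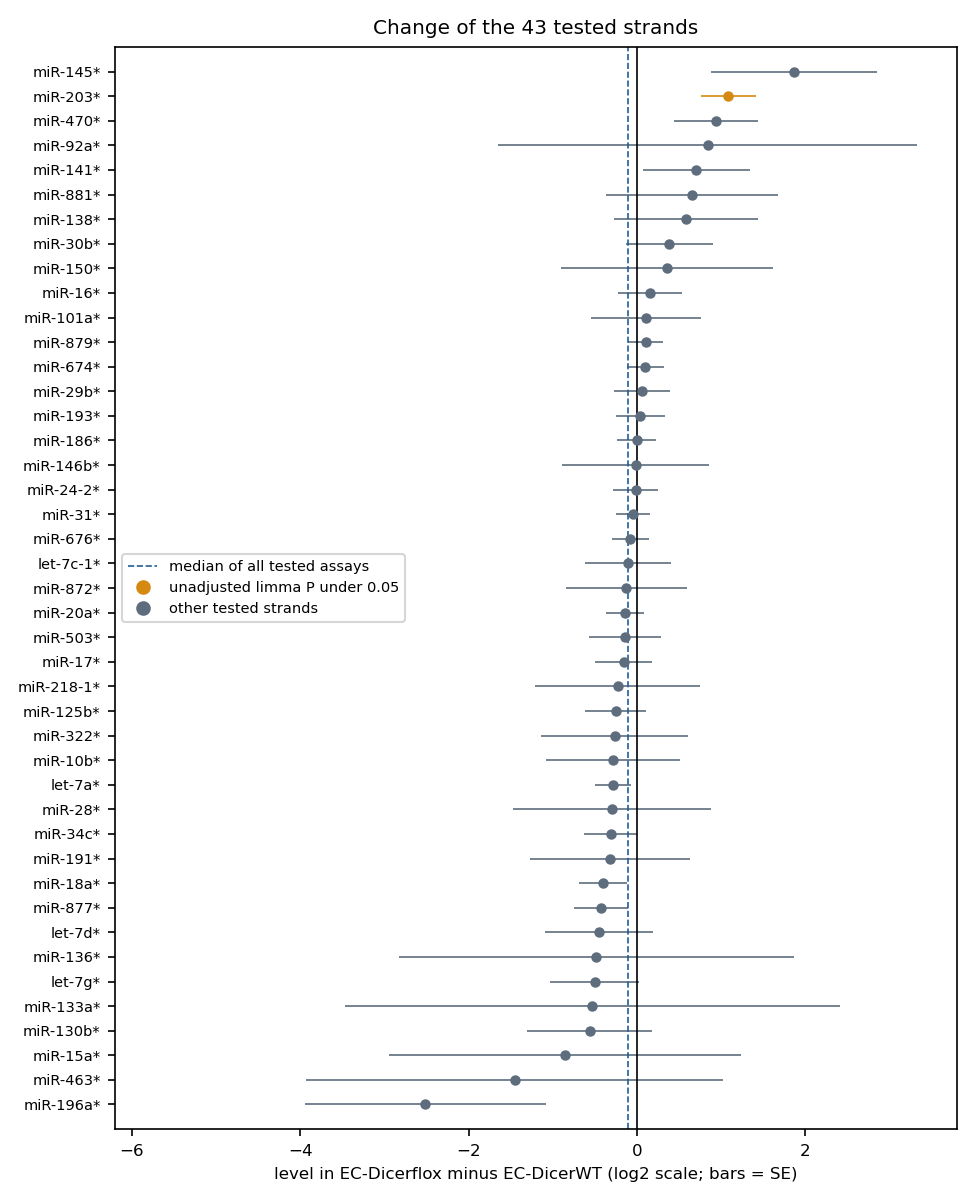
Change in level of the 43 tested passenger strands, EC-Dicerflox minus EC-DicerWT on the log2 scale, as fitted by limma with bars for the SE, in the order of the change. The orange point is miR-203* at 1.08, the only member with an unadjusted P under 0.05, the dashed line is the median of all 439 tested assays at -0.10, and most other bars cross 0.

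The largest changes belonged to strands near the limit of detection. The change was 1.86 ± 0.99 for miR-145* (limma unadjusted P = 0.114) and -2.51 ± 1.43 for miR-196a* (limma unadjusted P = 0.136). For miR-145* the levels were -14.57, -16.02 and -17.46 in the EC-Dicerflox and -19.14, -17.89 and -16.61 in the EC-DicerWT aortas, and they overlapped. The guide miR-145 had a change of 0.21 ± 0.31. The miR-196a* strand, from a hairpin in the Hox clusters, was detected in 1 EC-Dicerflox (38.1) and 2 EC-DicerWT aortas (34.02 and 36.03).

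Among strands with lower Ct, miR-470* had a change of 0.93 ± 0.50 (limma unadjusted P = 0.118). Its levels were -10.85, -9.49 and -9.95 in the EC-Dicerflox and -11.06, -11.63 and -10.39 in the EC-DicerWT aortas, and they overlapped. The passenger of the mirtron, miR-877*, had -0.43 ± 0.32 (unadjusted P = 0.239 by limma), with a raw Ct of 23.6, 24.9 and 25.2 in the EC-Dicerflox and 23.6, 23.975 and 24.3 in the EC-DicerWT aortas. The change was -0.41 ± 0.29 for miR-18a* and -0.31 ± 0.31 for miR-34c*. Their groups overlapped too.

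The strands with the strongest signals had small changes. The change was -0.02 ± 0.27 for miR-24-2*, -0.05 ± 0.21 for miR-31*, 0.04 ± 0.29 for miR-193* and 0.10 ± 0.22 for miR-674*. The SE of these assays was 0.21 to 0.29 log2 units, and a change has to be well above its SE to pass the test. Changes of about this size, and somewhat larger ones, were therefore not resolved. For miR-28* (-0.29 ± 1.17) and miR-872* (-0.13 ± 0.72) the spread was wider. The signs of the small changes of miR-24-2*, miR-31*, miR-193* and miR-674* turned with the reference.

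In the other 4 of the 5 pairs with the guide farthest ahead, of those with both strands in all mice, the change was 0.38 ± 0.52 for miR-30b*, 0.36 ± 1.26 for miR-150*, 0.15 ± 0.38 for miR-16* and -0.32 ± 0.95 for miR-191*. The signs for miR-150* and miR-16* turned with U6 as the reference. The change of miR-146b* was -0.02 ± 0.87, that of miR-322* -0.27 ± 0.87, that of miR-503* -0.15 ± 0.43 and that of miR-138* 0.58 ± 0.85. None of these passed the unadjusted threshold.

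The families were read beside the single strands. Of the miR-17-92 group and its paralogs, 4 of 6 members were tested, of which 3 were below 0, with a median of -0.15. Of the miR-15 and miR-16 group, 3 of 4 were below 0, with a median of -0.21. Both tested members from the epithelial hairpins of miR-141 and miR-203 were above 0, miR-203* as given and miR-141* at 0.70 ± 0.64 from 3 detections over 38 cycles. In these families miR-203* was again the only strand to pass the unadjusted threshold, and 32 members belonged to 16 listed families.

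The guides were read in the same fit. Of 51 guide assays 42 were tested, none had an unadjusted P under 0.05, 29 were below 0 and 13 above, and their median change was -0.11, beside 4.78% under this threshold and 61.7% below 0 among all tested assays. The groups did not overlap for 2 of the 42, beside 9.79% of all tested assays. These were let-7d, which was lower (-0.33 ± 0.21), and the card B assay of miR-322, which was higher (0.75 ± 0.33). The assay of miR-322 on card A had a change of -0.01 ± 0.42. In neither hairpin did the groups of the passenger separate.

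The strand difference over all hairpins did not separate the groups. The median over the 34 pairs of the passenger Ct minus the guide Ct was 5.31, 5.68 and 4.65 cycles in the EC-Dicerflox and 5.45, 5.69 and 5.26 cycles in the EC-DicerWT aortas. The means were 5.21 ± 0.52 and 5.47 ± 0.21 cycles (SD, n = 3 each), and their difference of -0.26 cycles was smaller than the spread of the EC-Dicerflox mice. In 22 of the 28 pairs with both strands in all mice, the groups differed by less than 0.5 cycles, with a range from -1.65 for miR-145* to 0.75 for miR-15a*.

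**Figure D4:**
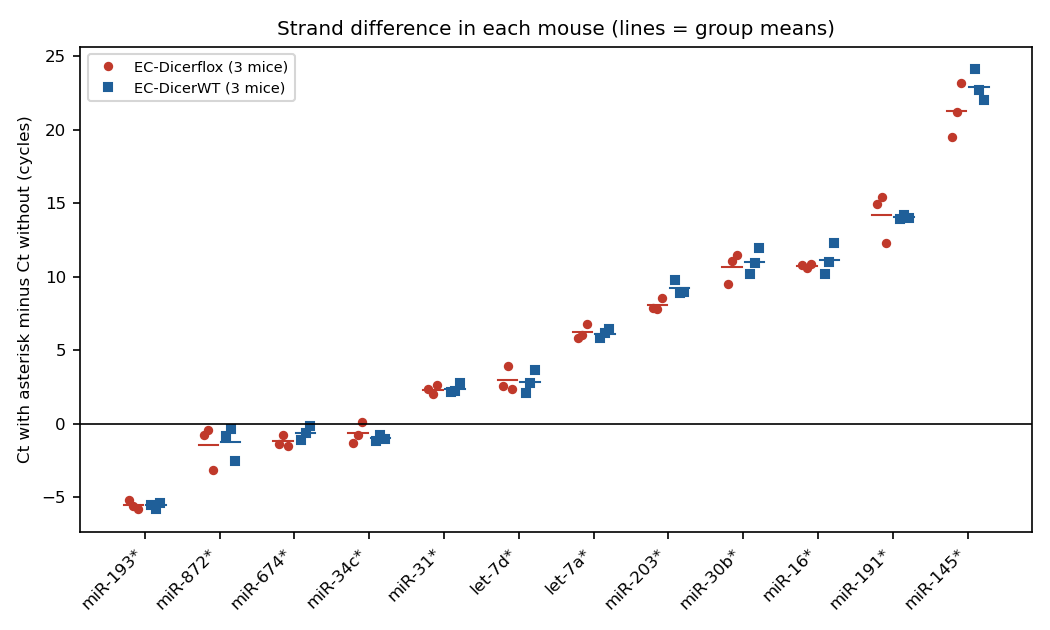
Ct of the passenger minus Ct of the guide (cycles) in each mouse for 12 hairpins, with circles for EC-Dicerflox, squares for EC-DicerWT and lines for the group means. Values under 0 have the passenger ahead, as for miR-193* near -5.57, and miR-203* (8.08 against 9.20 cycles) is the only one of these hairpins in which the points of the groups do not overlap.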

How the data were processed

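MiRNAs were measured by TaqMan array cards in total RNA of whole aortas, after reverse transcription and preamplification per the study's methods. The deposited table holds the authors' raw Ct values, with no reference subtracted and no unit beyond PCR cycles. How the baseline and threshold were set was not stated. A read depth does not apply, and the 3 mice per group limit the precision. Samples were grouped by their labels. The members, guides, families and markers were chosen with earlier results of these data known.

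A passenger strand was an assay name ending in an asterisk, and its guide the same name without it. The card of each assay was inferred from the length of its assay number, and all comparisons between cards rest on this. The control RNAs behind the reference Ct were U6, U87, Y1, snoRNA135 and snoRNA202, averaged over both cards. Assays with a Ct under 40 in at least 3 of 6 samples were fitted with limma 3.58.1 under R 4.3.3 (two-sided, lmFit followed by eBayes), with undetected wells at 40 and Benjamini-Hochberg adjustment over all 439. Single values were compared by exact permutation over 20 assignments. Doubling per cycle was assumed, and the fit was tested on simulated data. Strands were named when the P was under 0.05, when they were among the 5 lower or 5 higher with the smallest P of those detected in all samples, among the 10 with the highest level, above their guide, among the 5 farthest below it, or from let-7, miR-145, miR-146, miR-150, miR-203, miR-322 or miR-503. Samples with the same replicate number did not deviate together throughout (correlations of 0.15, -0.06 and 0.31), so the numbers were not used as pairs. The alternatives were other references, filters, limits, variance models, a batch term or left-out replicates, and pairs on the same card. Arms were taken from the older naming convention, and sequences, positions and gene bounds from RefSeq (GRCm38.p6).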

Additional observations from a re-analysis of the deposited data

Results flagged for a closer look

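The assay of a plant miRNA, which has no counterpart in the mouse, gave a Ct of 39.776 on card A in EC-Dicerflox replicate 1, a signal outside the miRNA comparisons, where the other wells of this control were not detected.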

How the results depend on the processing

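The count of 0 members with an adjusted P under 0.05 was the same under all 19 alternatives run. The count of 1 member with an unadjusted P under 0.05 was 0 with U6 alone as the reference and 0 with an intensity trend, 3 with replicates 1 and 2 only, and 0 to 4 with single replicates left out. With the replicate number as a block it was 1, and the block changed no other count of members. Over all tested assays the count of 21 lay between 8, without EC-Dicerflox replicate 2, and 28, with a batch term for replicates 3. Without EC-Dicerflox replicate 3 the 4 members were miR-145* (2.59), miR-191* (-1.34), miR-203* (1.11) and miR-881* (1.68), without EC-Dicerflox replicate 1 miR-470* (1.31) joined miR-203*, and without EC-DicerWT replicate 3 miR-196a* (-3.95) did. The change of miR-203* stayed above 0 in its 17 alternatives, from 0.71 to 1.30.

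The median change of -0.13 was -0.50 with U6, where the median of all tested assays was -0.48, and -0.16 to 0.14 with single replicates left out, being above 0 when EC-Dicerflox replicate 2 (0.14) or EC-DicerWT replicate 1 (0.0048) was omitted. The group difference in the median strand difference was 0.28 cycles in the 3 pairs on the same card, and -0.49 to 0.03 with single replicates left out. The 9 pairs with the passenger ahead were 4 with detection in all 6 samples and 1 on the same card. The difference in the number of detected strands was -2.0 with replicates 1 and 2 only and -1.17 to 1.33 with single replicates left out.

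The signs of small changes turned as follows. With U6, the changes were -0.019 for miR-150*, -0.22 for miR-16*, -0.34 for miR-193* and -0.28 for miR-674*. With the global mean they were 0.0365 for miR-146b*, 0.0355 for miR-24-2* and 0.0055 for miR-31*, and with snoRNA135 0.032, 0.031 and 0.001. With replicates 1 and 2 only they were 0.10 for let-7c-1*, 0.48 for miR-146b*, -1.18 for miR-150*, -0.18 for miR-16*, -0.14 for miR-193* and 0.0175 for miR-503*. With single replicates left out, the ranges were -0.40 to 0.29 for let-7c-1*, -0.86 to 0.0371 for let-7d*, -0.85 to 0.0565 for let-7g*, -0.22 to 1.04 for miR-138*, -0.82 to 0.79 for miR-146b*, -0.82 to 1.24 for miR-150*, -0.15 to 0.49 for miR-16*, -1.34 to 0.39 for miR-191*, -0.16 to 0.17 for miR-193*, -0.16 to 0.15 for miR-24-2*, -1.37 to 0.55 for miR-28*, -0.0359 to 0.70 for miR-30b*, -0.12 to 0.0547 for miR-31*, -1.02 to 0.32 for miR-322*, -0.48 to 0.20 for miR-503*, -0.0191 to 0.18 for miR-674* and -0.72 to 0.33 for miR-872*. The cause was not tested.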
